A study of Mus musculus with 6 samples.

Results

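Myosin heavy chains, myosin light chains and myosin-binding protein C were measured by 7 probe sets in the long bones of the newborn mouse forearm. The members were all probe sets of the deposited table that the platform's annotation ties to exactly 1 gene symbol, that symbol being Myh1, Myl1, Mylpf, Mybpc2, Myh7, Myl3 or Myl4. They gave 1 probe set for each of the 7 genes, of 5780 genes named by 6398 of the 8997 probe sets in the same way. Of these genes 4 belong to fast muscle (Myh1, Myl1, Mylpf and Mybpc2), 2 to slow muscle (Myh7 and Myl3) and 1, Myl4, to embryonic and perinatal muscle.

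Total RNA of radii and ulnae was read on 6 Affymetrix whole-transcript arrays, 1 sample each. The 3 mutant samples came from newborn mice with the del175k mutation of Tnni2 on strain 129sv, and the 3 wild-type samples from newborn littermates of the same strain without it. Tnni2 encodes fast skeletal troponin I, the inhibitory subunit of the calcium switch on the actin filament. The labels give neither the zygosity nor whether an array held the bones of 1 mouse, and the spread that p-values rest on here is that between arrays, part of which may be technical.

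Muscle myosin is a hexamer of a pair of heavy chains, which carry the motor and the tail of the thick filament, and of essential and regulatory light chains that brace the lever arm. Myosin-binding protein C lies in stripes along the thick filament and tunes how myosin meets actin. Fast, slow and embryonic or perinatal fibres use different genes for each of these parts, and newborn limb muscle is in transition from the developmental to the adult fast forms. Bone and cartilage cells do not build sarcomeres, and forearm muscles insert on these bones.

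In mutant bone all 4 fast members had lower mean intensities and both slow members higher ones, and Myl4 was lower too. Of all probe sets 43.3% had lower means and 56.7% higher ones. The log2 differences of Myl1 (-0.18 ± 0.27, SE) and Mylpf (-0.16 ± 0.35, SE) were smaller than their SE and changed sign without wild-type replicate 3. Mybpc2 differed most, at 0.420-fold of the wild-type level, and it was the 1 member whose mutant values all lay below all wild-type values. It is dim and met the table's filter by level through the wild-type, so its difference is not independent of that filter. No member passed the limma test over all probe sets: 0 of 7 were called higher and 0 lower at an adjusted p of 0.05, against 0% of the 8997 probe sets in each direction. At an unadjusted p under 0.05, 1 of 7 was lower, against 1.7% of probe sets, and 0 of 7 were higher, against 5.74%. Within each array, the ratio of the slow heavy chain Myh7 to the fast heavy chain Myh1 was 2.59-fold higher in the mutants. The groups did not overlap, an order seen in 7.91% of the within-array ratios of all ordered pairs of probe sets. That share counts each pair in both orders, so it is not a like measure for a ratio whose direction follows its means. An exact permutation test gave p = 0.1, the smallest that 3 arrays against 3 can give.

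Promoter windows from RefSeq (GRCm38.p6), reaching from 250 bases before the start of a gene to 50 after it, were found for 7 of 7 members. They are shown for the fast heavy chain, for the member with the largest difference and for both slow members. Those of Myl1, Mylpf and Myl4 are not shown, though Myl1 and Mylpf also enter the ratios below. Capitals mark E-boxes, CANNTG, the site read by the MyoD family of muscle factors, as runs of 6, and the MEF2 box, read by the MEF2 factors of muscle, as a run of 10. Both strands were searched. Myh7 has 2 windows whose starts lie 77 bases apart, and the downstream one is given.
Mybpc2, chr7:44524620-44524919, - strand: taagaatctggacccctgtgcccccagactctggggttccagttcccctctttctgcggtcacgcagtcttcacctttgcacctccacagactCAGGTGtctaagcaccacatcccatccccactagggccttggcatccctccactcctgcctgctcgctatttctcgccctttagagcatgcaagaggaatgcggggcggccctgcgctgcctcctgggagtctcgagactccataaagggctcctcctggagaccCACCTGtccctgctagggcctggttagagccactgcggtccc
Myh1, chr11:67199852-67200151, + strand: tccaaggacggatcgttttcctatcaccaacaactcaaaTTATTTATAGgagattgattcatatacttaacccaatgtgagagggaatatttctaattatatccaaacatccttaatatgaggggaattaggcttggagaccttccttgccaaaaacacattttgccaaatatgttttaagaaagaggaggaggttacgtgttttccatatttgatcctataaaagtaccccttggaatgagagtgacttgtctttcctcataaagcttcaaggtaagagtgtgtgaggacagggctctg
Myh7, chr14:54994500-54994799, - strand: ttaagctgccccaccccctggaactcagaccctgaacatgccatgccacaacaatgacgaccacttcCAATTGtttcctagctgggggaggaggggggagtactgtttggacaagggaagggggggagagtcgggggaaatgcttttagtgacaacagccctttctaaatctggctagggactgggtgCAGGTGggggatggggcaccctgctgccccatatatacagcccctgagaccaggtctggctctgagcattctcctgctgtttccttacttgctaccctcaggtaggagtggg
Myl3, chr9:110763428-110763727, + strand: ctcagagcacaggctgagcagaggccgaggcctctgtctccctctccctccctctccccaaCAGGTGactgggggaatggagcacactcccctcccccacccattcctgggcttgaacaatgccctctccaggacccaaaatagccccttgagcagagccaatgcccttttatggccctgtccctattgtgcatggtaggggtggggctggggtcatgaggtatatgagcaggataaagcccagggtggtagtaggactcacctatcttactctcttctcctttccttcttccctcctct

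An E-box was present in 5 of 7 member windows, Mybpc2 and Myh7 holding 2 each, against 72.3% of all 32851 windows of 300 bases. The MEF2 box occurred in Myh1 alone among the members and in 3.2% of all windows. The letters TATAAA occurred in Myh1 and Myl1, against 13.6% of all windows, and in Myh1 one copy overlaps the MEF2 box. The MCAT motif CATTCC, read by TEAD factors, was found in 4 of 7 members (Myh1, Myl1, Mybpc2 and Myl3), fast and slow alike, against 14.7% of all windows, and the upstream window of Myh7 also holds it. The CArG box, read by serum response factor, was found in Myl3 and in 1.6% of all windows. Myl4 and Mylpf held fewer, with none of the 5 motifs in the Myl4 window and 1 E-box in that of Mylpf. These matches describe letters in a window and were not tied to any level.

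Array medians were 45.5 to 47.8 intensity units in the mutants and 39.6 to 48.4 in the wild-type. Wild-type replicate 1 was dimmer than the rest, its median probe set lying at -0.30 (log2) from the mean of the other arrays. All 6 fixed markers of skeletal muscle fibre (Acta1, Ckm, Ttn, Neb, Mb and Tcap) were measured and none was at 0. Their summed intensity was 3243 to 4087 in the mutants and 2553 to 4981 in the wild-type, lowest on wild-type replicate 1 and highest on wild-type replicate 3. Osteoblast markers (4 of 6 measured) and cartilage markers (5 of 5) were present at unlike brightness, from the bone collagen gene Col1a1, at 7321 to 7785 in the mutants and 6552 to 7807 in the wild-type, down to the osteoblast factor gene Sp7, at 21.3 to 61.1 in the mutants and 26.4 to 65.4 in the wild-type. All 4 keratinocyte markers were measured, and their sum was 30.3 to 153 in the mutants and 29.0 to 504.5 in the wild-type, high on mutant replicate 2 and on wild-type replicates 1 and 2.

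Some markers of other cells also differed between the groups. All 3 osteoclast markers were measured, and their sum was 1151 to 1669 in the mutants and 575.4 to 1008 in the wild-type. Ctsk, Acp5 and Mmp9, enzymes of bone resorption, each had all mutant values above all wild-type values, an order seen in 9.18% of all probe sets. Their log2 differences were 1.16, 0.72 and 0.78, and none passed (limma adjusted p of 0.59 to 0.595). Of 4 smooth muscle markers 1 was measured, the actin gene Acta2, at 199.2 to 287.4 in the mutants and 296.2 to 459.7 in the wild-type. All its mutant values lay below, an order seen in 3.89% of all probe sets (log2 difference -0.62, limma adjusted p = 0.664). The part of skin, muscle, osteoclasts or smooth muscle in the results was not tested, and fewer muscle fibres and less RNA per fibre cannot be told apart in such samples.

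All 7 members reached the intensity of 20 that every probe set of the table has on at least 3 arrays, and 5 of them reached it on all 6. Mybpc2 passed on 4 arrays, being under 20 on mutant replicates 1 and 2, and Myl3 passed on 4, being under 20 on wild-type replicates 1 and 2. Each thus met the filter through the group where it was higher, as only replicate 3 of the other group reached 20. Their presence in the table is therefore not independent of their differences. How background was handled is not stated, and it bears on changes of probe sets this dim. Within the wild-type, all 7 members were highest on replicate 3 and lowest on replicate 1, the same arrays that held the most and the least muscle marker signal. Within the mutants, 6 of 7 members were highest on replicate 3, the exception being Myh1.

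**Figure D1:**
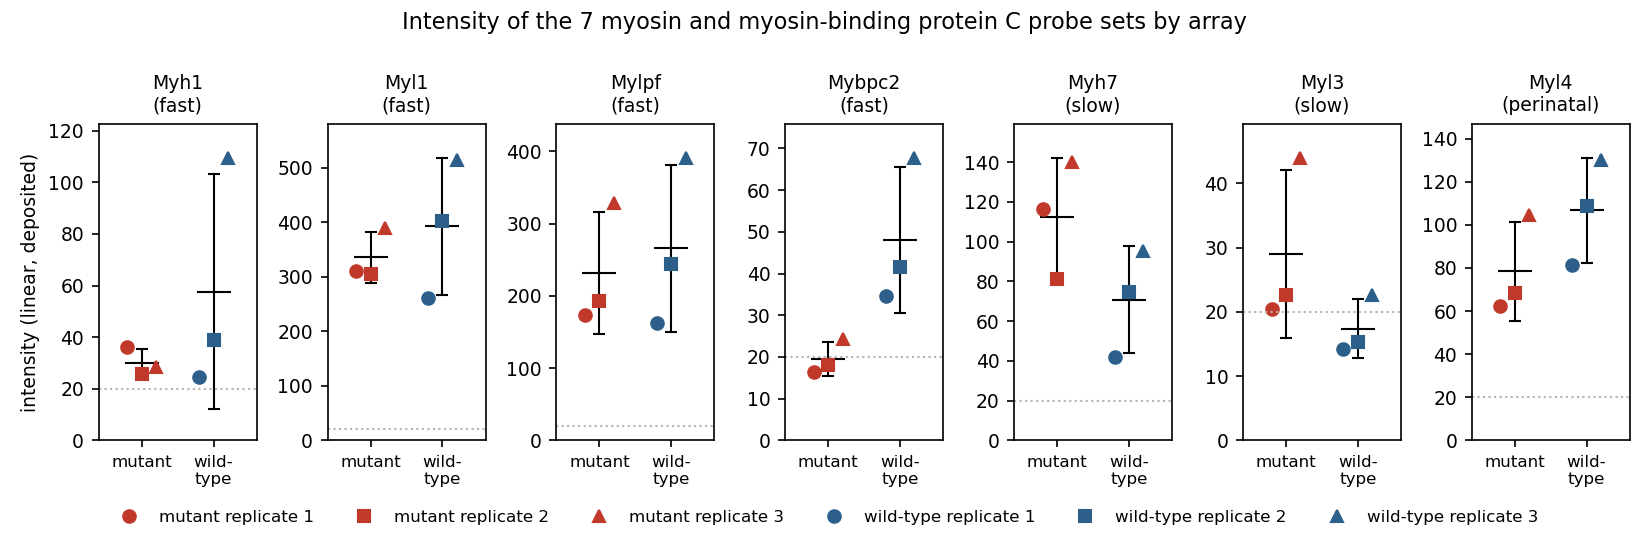
Intensity (linear, as deposited) of the 7 members on each array, mutants in red on the left and wild-type in blue on the right, marker shape for the replicate number, black bars for the mean ± SD of 3 arrays, dotted line at 20. The 3 mutant values of Mybpc2, 16.5 to 24.2, sit under its 3 wild-type values, 34.6 to 67.8, while the groups overlap in the other 6 genes.

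Myh1 encodes the fast heavy chain of type 2X fibres. Its intensity was 36.2, 25.5 and 28.5 on mutant replicates 1 to 3, against 24.4, 38.8 and 109.6 on wild-type replicates 1 to 3. The mutants lay close together, inside the range of the wild-type, and wild-type replicate 3 alone stood far above. The mean was 30.1 ± 5.49 in the mutants and 57.6 ± 45.6 in the wild-type (SD, n = 3 each), a log2 difference of -0.66 ± 0.46 (SE, limma adjusted p = 0.746). Without wild-type replicate 3 the difference was -0.047, and without wild-type replicate 1 it was -1.13. The heavy chain genes Myh3, Myh2, Myh1, Myh4 and Myh8 are neighbours with closely related coding sequences, and how far the Myh1 probes also bind their transcripts was not tested here.

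Myl1, which encodes the fast essential light chains, was bright at 310.5, 306.1 and 390.6 in the mutants, against 262, 402.1 and 513.7 in the wild-type. The mutant values lay inside the wild-type range. The log2 difference was -0.18 ± 0.27 (SE, limma adjusted p = 0.866), with a 95% interval of -0.78 to 0.42, and it turned to 0.040 without wild-type replicate 3.

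Mylpf, the fast regulatory light chain, was at 173.1, 193.5 and 328.8 in the mutants and at 162.6, 243.9 and 391.1 in the wild-type. It too overlapped fully, with a log2 difference of -0.16 ± 0.35 (SE, limma adjusted p = 0.924) and a 95% interval of -0.95 to 0.62. Leaving out wild-type replicate 3 gave 0.16, and leaving out mutant replicate 1 gave 0.016. The intervals of both fast light chains include the value of Myh1.

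Mybpc2, which encodes myosin-binding protein C of fast fibres, had intensities of 16.5, 18.0 and 24.2 in the mutants, against 34.6, 41.5 and 67.8 in the wild-type. Each mutant value was below each wild-type value, an order seen in 3.89% of all probe sets. The mean was 19.6 ± 4.08 in the mutants and 48.0 ± 17.5 in the wild-type (SD, n = 3 each). The log2 difference was -1.25 ± 0.28 (SE), with a 95% interval of -1.88 to -0.62. Its unadjusted p of 0.00133 in the limma fit ranked 27 among the 8997 probe sets, of which 669 were under 0.05. The adjusted p was 0.441, so Mybpc2 did not pass. The rank and the 3.89% are not independent of the filter at 20, which Mybpc2 met through the wild-type. The difference kept its sign in each of 15 alternatives, between -1.55 and -0.82, and without 1 array it was -1.46 to -0.97. Adjusted p-values in limma were between 0.084 and 0.983 over all 15. Some of these alternatives alter only the test and cannot change the difference itself.

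Myh7 encodes the slow heavy chain, also the beta chain of heart. It was at 116.6, 81.0 and 140 in the mutants, against 42.0, 74.9 and 95.5 in the wild-type. Mutant replicates 1 and 3 exceeded all wild-type arrays, and mutant replicate 2 lay under wild-type replicate 3, so the groups overlapped. The mean was 112.5 ± 29.7 in the mutants and 70.8 ± 27.0 in the wild-type (SD, n = 3 each). The log2 difference was 0.71 ± 0.33 (SE, limma adjusted p = 0.68), with a 95% interval of -0.016 to 1.44. It was 0.38 without the dim wild-type replicate 1.

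Myl3, the essential light chain of slow fibres and of the heart ventricle, was dim at 20.4, 22.6 and 44.0 in the mutants and at 14.2, 15.3 and 22.7 in the wild-type. Only wild-type replicate 3 reached the lower mutant values, and mutant replicate 3 was the highest of all. The log2 difference of 0.68 ± 0.32 (SE, limma adjusted p = 0.686) was nearly that of Myh7, with a 95% interval of -0.030 to 1.39. It was 0.34 without mutant replicate 3, and 0.39 with all values under 20 set to 20.

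Myl4 encodes the essential light chain of embryonic skeletal muscle and of the heart atrium. It was at 62.2, 68.3 and 104.7 in the mutants, against 81.4, 108.9 and 130 in the wild-type. Mutant replicates 1 and 2 lay below every wild-type array and mutant replicate 3 did not. The mean was 78.4 ± 23.0 in the mutants and 106.7 ± 24.4 in the wild-type (SD, n = 3 each), a log2 difference of -0.46 ± 0.27 (SE, limma adjusted p = 0.716). Leaving out mutant replicate 3 gave -0.69, and leaving out wild-type replicate 3 gave -0.30.

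**Figure D2:**
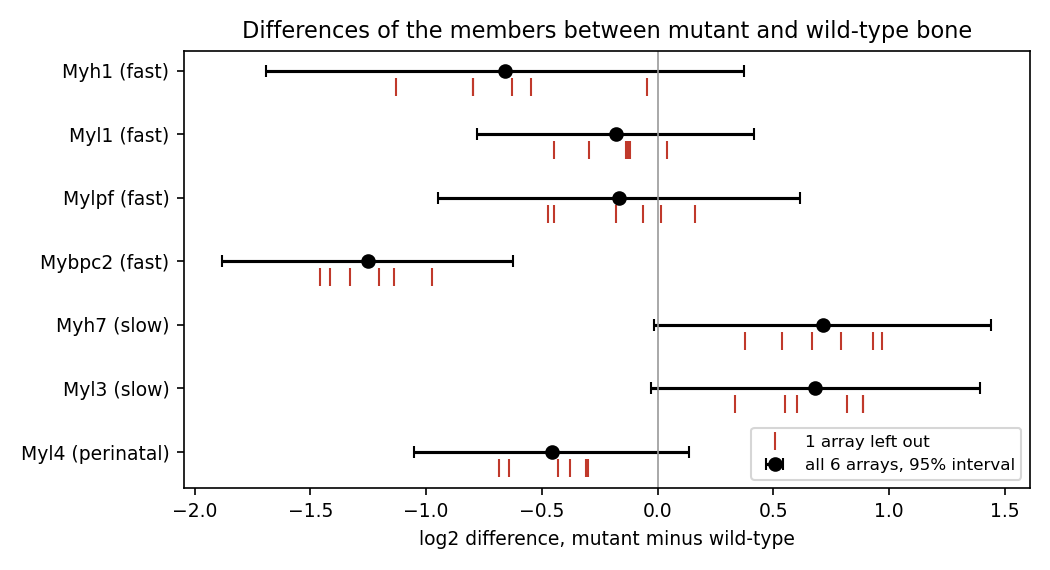
Log2 difference of each member, mutant minus wild-type, with its 95% interval from limma (black) and the 6 values with 1 array left out (red ticks). The interval of Mybpc2, -1.88 to -0.62, is the one that leaves out 0, before adjustment over all probe sets.

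With the arrays scaled in another way, by quantile normalization, 4 of 4 fast members were lower and 2 of 2 slow members higher. The same counts after median centring add little, as it shifts the difference of every probe set by the same amount. It took Myh1 from -0.66 to -0.71 and Myh7 from 0.71 to 0.66. Without wild-type replicate 3, 2 of 4 fast members were lower, with a median difference of -0.0037 in place of -0.42, and both slow members were higher. Of all 8997 probe sets 5626 were then higher, with a median of 0.11. With array weights, which gave wild-type replicate 1 a weight of 0.232, Myh1 was at -1.29, Myl1 at -0.49, Mylpf at -0.59 and Mybpc2 at -1.55 (log2). Myh7 was then at 0.25 and Myl3 at 0.39, and none of the 7 passed.

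The slow and fast forms were set against each other within each array, which leaves aside how bright an array was. The log2 ratio of Myh7 over Myh1 was 1.69, 1.67 and 2.29 in the mutants, against 0.78, 0.95 and -0.20 in the wild-type. Every mutant array exceeded every wild-type array, an order seen in 7.91% of the within-array ratios of all ordered pairs of probe sets. As each pair is counted in both orders, that share is not a like measure for this ratio, which sets a higher mean over a lower one. The ratio differed by 1.37 on the log2 scale (exact permutation test, two-sided, p = 0.1, adjusted p = 0.1 over 2 ratios), and 0.1 is the smallest p that 3 arrays against 3 can give.

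The log2 ratio of the slow over the fast essential light chain, Myl3 over Myl1, was -3.93, -3.76 and -3.15 in the mutants, against -4.20, -4.72 and -4.50 in the wild-type. The groups were again apart, by 0.86 on the log2 scale or 1.82-fold (exact permutation test, two-sided, p = 0.1, adjusted p = 0.1). This ratio rests on the dim Myl3: with values under 20 set to 20 the groups overlapped and the difference was 0.57. Of all 8 pairs of a slow over a fast member, looked at after the data were seen, 7 had every mutant array above every wild-type array, against that 7.91% of all pairs. The 8 ratios reuse 6 genes and are not separate counts, and each pair sets a member with a higher mean over one with a lower mean. Pairs with Myl3 or Mybpc2 also hold a dim gene that met the filter at 20 through the group where it was higher. The 7.91% counts every pair of probe sets in both orders, so it is not a like measure for pairs whose direction follows their means. Their differences ran between 0.85 and 1.96 on the log2 scale. In the remaining pair, Myl3 over Myh1, mutant replicate 1 at -0.82 lay just under wild-type replicate 1 at -0.78. A probe set's level says nothing of another gene's level, so only the change of each ratio between arrays can be read.

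**Figure D3:**
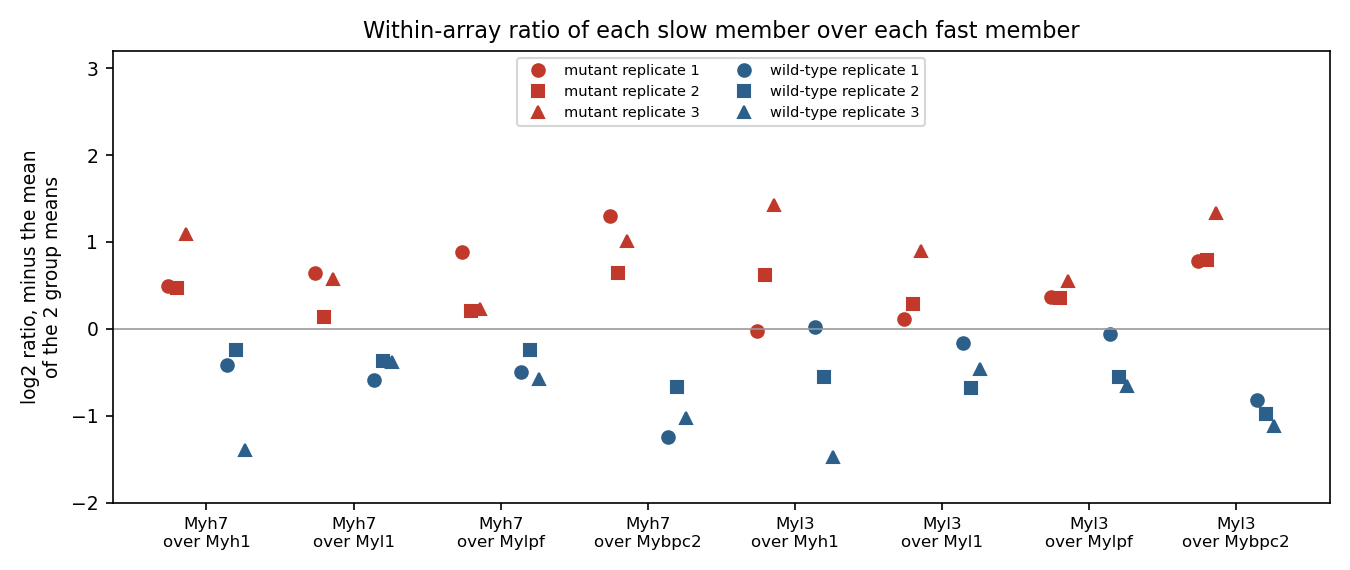
Log2 ratio of each slow over each fast member on each array, shifted for each pair by the mean of its 2 group means, mutants in red left of the wild-type in blue, marker shape for the replicate number. Mutant arrays lie above wild-type arrays in 7 of the 8 pairs, which reuse 6 genes, and Myl3 over Myh1 overlaps. The order is seen in 7.91% of all ordered pairs of probe sets. That share counts both orders of each pair, while the pairs shown set a member with a higher mean over one with a lower mean, so the 2 are not like for like.

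The members were also set against the rest of the sarcomere in the same array. Of 26 listed genes of the sarcomere frame 20 were measured, among them the actin gene Acta1, the giant ruler protein gene Ttn and the creatine kinase gene Ckm. Their mean log2 intensity was 6.71, 6.65 and 6.80 in the mutants, against 5.90, 6.53 and 6.95 in the wild-type. Centring each array on this mean, a setting chosen after the data were seen, moved the median difference of all probe sets to -0.21, against 0.045 before, and values below are on that scale.

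Relative to the frame, Mybpc2 was at -2.66, -2.47 and -2.20 in the mutants, against -0.79, -1.15 and -0.87 in the wild-type (log2). No mutant value reached the wild-type range, and the log2 difference was -1.51 ± 0.30 (SE, limma adjusted p = 0.0921). As before, Mybpc2 is in the table through its wild-type arrays. Myl4 was at -0.75, -0.55 and -0.087 in the mutants and at 0.44, 0.24 and 0.067 in the wild-type, a log2 difference of -0.71 ± 0.30 (SE, limma adjusted p = 0.793). Myh1 differed by -0.91 ± 0.33 and Myl1 by -0.44 ± 0.29 (SE).

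In these 4 genes every mutant value lay below every wild-type value on this scale, an order that 8.25% of all probe sets then had. The opposite order, seen in 1.52% of probe sets, was seen in 0 of 7 members. Mylpf at -0.42 ± 0.31 and the slow members overlapped, with Myh7 at 0.46 ± 0.30 and Myl3 at 0.42 ± 0.33 (log2 differences, SE). No member passed after this centring.

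**Figure D4:**
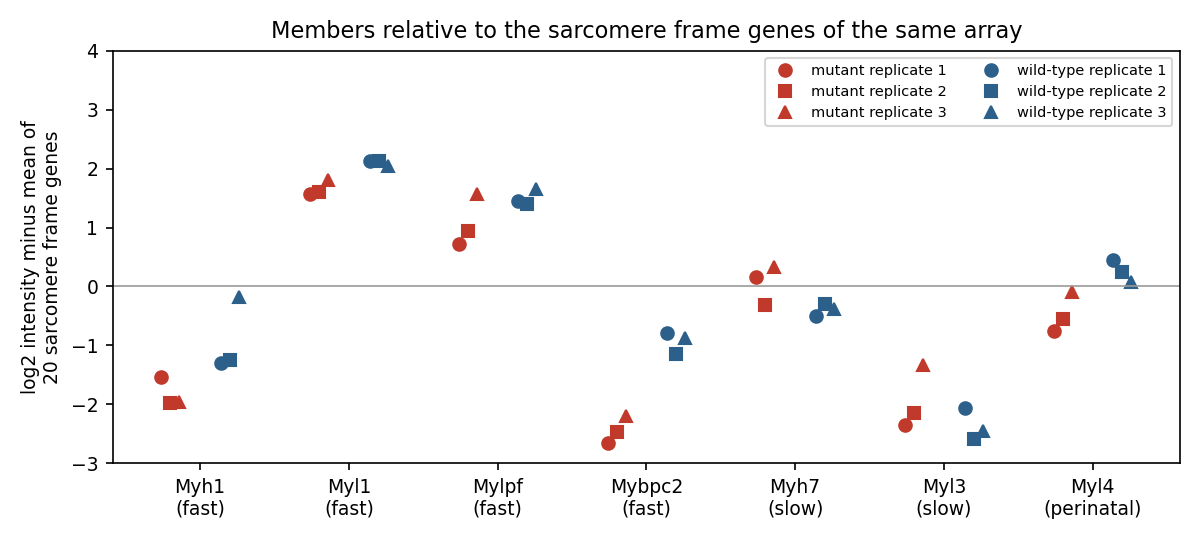
Log2 intensity of each member minus the mean of the 20 measured sarcomere frame genes of the same array, mutants in red left of the wild-type in blue, marker shape for the replicate number. Mybpc2 shows the widest gap, mutants at -2.66 to -2.20 and wild-type at -1.15 to -0.79.

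Related muscle genes were described by lists chosen for their roles. Among other fast-fibre genes, 11 of 15 were measured, and 7 were lower on average in the mutants, with a median log2 difference of -0.032, where 43.3% of all probe sets had lower means and their median was 0.045. The direction turned with the array left out. Without wild-type replicate 1, 8 of 11 were lower (median -0.33), against 4979 of all 8997 probe sets (-0.033). Without wild-type replicate 3, 8 of 11 were higher (0.22), against 5626 of 8997 (0.11). Without mutant replicate 2, 9 of 11 were higher (0.081), against 5279 of 8997 (0.065). The largest differences were in Casq1, the calcium store protein of fast fibres (-0.66), Cacng1, the gamma subunit of the calcium channel of muscle (0.49), Myoz1, a Z-disc protein (0.42), and Actn3, the fast-fibre actinin (-0.41). Tnni2, the mutated gene, was at 133.8, 127.4 and 198.2 in the mutants and at 101.5, 164.7 and 257.7 in the wild-type. The difference of -0.12 ± 0.33 (log2, SE, limma adjusted p = 0.943) was small. Within the wild-type Tnni2 was lowest on replicate 1 and highest on replicate 3, as all 7 members were, fast or not. Deletion of a codon need not change a transcript's level, so this does not check the labels.

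Among other slow-fibre genes, 11 of 13 were measured and 9 had higher means in the mutants, with a median log2 difference of 0.50, against 56.7% of all probe sets with higher means. Mybpc1, the slow-fibre counterpart of Mybpc2, was at 262, 323.6 and 304.8 in the mutants and at 115.4, 238.9 and 265.3 in the wild-type. Its difference of 0.61 ± 0.31 (SE, limma adjusted p = 0.708) thus had the sign of Myh7 and Myl3 and not that of Mybpc2. The groups overlapped, and the low wild-type value was that of the dim replicate 1. Ankrd2, a stretch-responsive nuclear and sarcomere protein, was at 0.66, Myoz2, a Z-disc protein, at 0.59, and Tnnt1, slow troponin T, at 0.53. Without wild-type replicate 1 the list had 7 of 11 higher and a median of 0.12, against 4018 of all 8997 probe sets and -0.033.

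Among other embryonic and perinatal genes, 11 of 15 were measured, 6 with higher and 5 with lower means, at a median log2 difference of 0.082. Without wild-type replicate 1 the median was -0.14 with 4 of 11 higher, against -0.033 and 4018 of all 8997 probe sets. Without wild-type replicate 3 it was 0.18 with 10 of 11 higher, against 0.11 and 5626 of 8997. The developmental heavy chains, named after their values were seen, are given beside Myl4, and the differences between their changes were not tested. Myh8, the perinatal heavy chain, was at 721.1, 674.8 and 1067 in the mutants and at 553.1, 920.7 and 1195 in the wild-type, a log2 difference of -0.076 ± 0.31 (SE, limma adjusted p = 0.964). Myh3, the embryonic heavy chain, was at 238.5, 231.9 and 354.7 in the mutants and at 117, 264.6 and 332.5 in the wild-type, a log2 difference of 0.31 ± 0.37 (SE, limma adjusted p = 0.834).

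Both heavy chains overlapped between the groups, and the wild-type array with the lowest value was replicate 1 in each. The largest differences of the list were in Ncam1, a cell adhesion molecule of myotubes and nerve (0.74), Cdh15, the cadherin of muscle precursors (-0.40), Tnnt2, the cardiac and embryonic troponin T (0.38), and Myl6b, an essential light chain of slow and non-muscle myosin (0.33). Ncam1 was the 1 gene of the list with all mutant values above all wild-type values, an order seen in 9.18% of all probe sets.

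The sarcomere frame genes were higher in 14 of 20, with a median log2 difference of 0.18, against 56.7% of all probe sets with higher means. This turned to 9 of 20 and -0.070 without wild-type replicate 1, against 4018 of all 8997 probe sets and -0.033. It became 20 of 20 and 0.40 without wild-type replicate 3, against 5626 of 8997 and 0.11. Myot, a Z-disc protein, was at 0.95, Myom2, an M-band protein, at 0.77, Tcap, the cap of titin, at 0.71 and Ttn at 0.64. Among non-muscle and smooth muscle myosins, 13 of 18 were measured, 7 with higher and 6 with lower means, at a median of 0.057, which was -0.23 without wild-type replicate 1. The unconventional myosins Myo1d (0.78), Myo1e (0.57) and Myo10 (0.54) and the smooth muscle light chain Myl9 (-0.58) differed most. In these lists 0 genes passed the limma test over all probe sets. An unadjusted p under 0.05 was seen in 1 of 11 embryonic and perinatal genes (Ncam1) and 2 of 20 frame genes (Tcap and Myot). It was also seen in 1 of 13 non-muscle and smooth muscle myosins (Myo1d), and in 0 of 11 in each of the fast-fibre and slow-fibre lists. These 4 were higher in the mutants, where 5.74% of all probe sets were higher at that level and 1.7% lower.

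Myh7, Myl3 and Myl4 are also genes of heart. Of 7 heart markers 2 were measured and the others were not analysed here, and these 2, Actc1 and Tnnt2, are ones that embryonic skeletal muscle also expresses. Actc1 was at 833, 1191 and 1495 in the mutants and at 726.5, 1465 and 1174 in the wild-type.

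**Figure D5:**
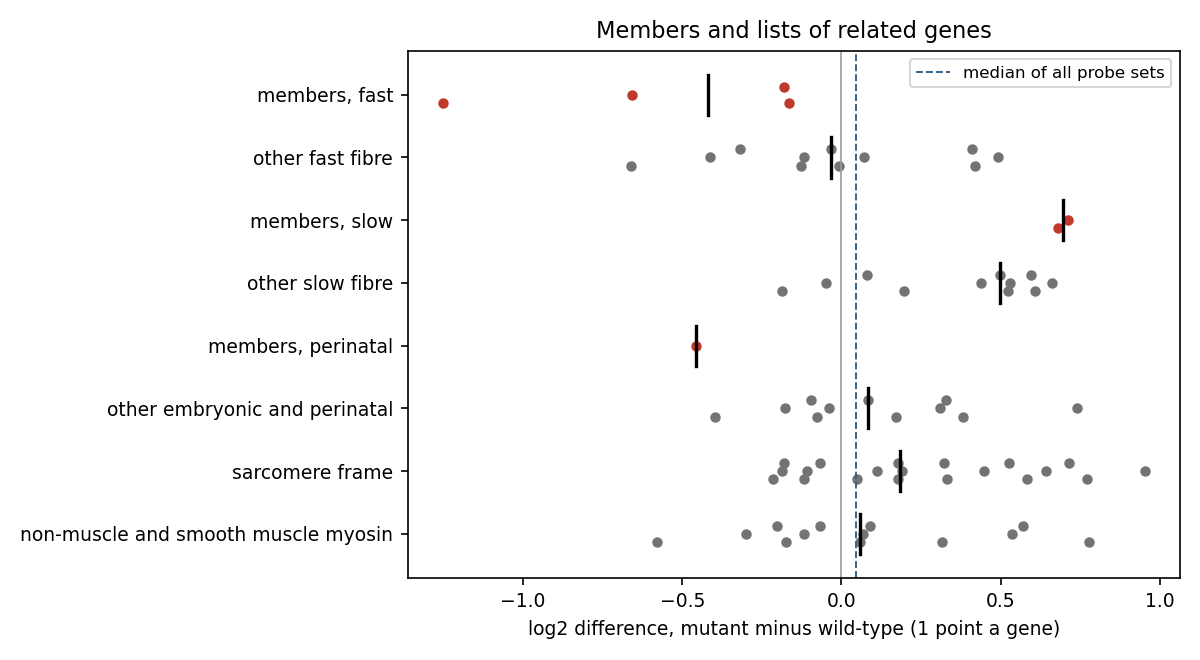
Log2 difference, mutant minus wild-type, of each member (red) and of each measured gene of the related lists (grey), 1 point a gene, with the median of each list as a black bar and the median of all probe sets as a dashed line. The fast members centre on -0.42 and the other fast-fibre genes on -0.032, while the slow members centre on 0.70 and the other slow-fibre genes on 0.50.

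The genes whose pattern over the 6 arrays was most like that of the members were taken among 6297 probe sets with 1 symbol, which left out the 7 members and 94 probe sets of predicted genes and kept all related muscle genes. For the mean log2 intensity of the fast members these were Pprc1, Chst2, Fastk, Mmd and Ttyh2, with Pearson's r between 0.982 and 0.987, and 39 probe sets exceeded 0.95. For the slow members they were Rps29, Vcam1, Hpgd, Rps18 and Hexa (r between 0.974 and 0.984), with 22 probe sets over 0.95. For Myl4 they were Meox2, Maged2, both probe sets of Cdk2ap1, and Tmem109 (r between 0.993 and 0.998), with 111 over 0.95. The arrays share their brightness, so these are descriptions of 6 points and not tests. None of the sarcomere genes named above was among these nearest patterns.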

How the data were processed

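Values were the deposited intensities on a linear scale, 1 for each of 8997 probe sets on each of 6 arrays. Biotin-labelled cDNA was made with Affymetrix whole-transcript kits, per the labels' protocols. The authors' background correction, summarisation and scaling are not given in the sources used here. Array medians differed, and every probe set reached 20 on at least 3 arrays, a filter by level found in the values. Gene symbols came from the platform's annotation of 2016: 6398 probe sets had 1, 576 several and 2023 none. Entrez identifiers of the 7 members matched the RefSeq table of GRCm38.p6.

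Intensities were taken to log2 without further normalization. The 2 group means were fitted by limma 3.58.1 (lmFit, then eBayes; R 4.3.3), two-sided, with Benjamini-Hochberg adjustment over all 8997 probe sets and a threshold of 0.05. For a list gene with several probe sets the brightest stood for it. Ratios within arrays were compared by exact permutation over the arrays. Motifs and plots were made in Python 3.11.15 (pandas 2.3.3, matplotlib 3.10.9), and the fit was tested on simulated data. Named genes were the members, Tnni2, up to 4 genes per list with the largest differences and the 5 nearest patterns for each class. Members, lists and tests were chosen with earlier results of these data known. Alternatives were 2 scalings, a filter on dim probe sets, a floor, a pseudocount of 16, array weights, robust variances with a trend on intensity, a block for the replicate number, leaving out each array, and, added later, centring on the sarcomere frame. The number of arrays limits the precision.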

Additional observations from a re-analysis of the deposited data

How the results depend on the processing

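No member passed at an adjusted p of 0.05 in any alternative run. Mybpc2, Myh1, Myh7 and Myl4 kept their direction in all 15, though Myh1 was at -0.047 without wild-type replicate 3. Myl3 kept its direction in the 14 that gave a value. Both ratios kept theirs in the 11 in which they were taken, which left out the dim filter, the intensity trend, array weights and frame centring. Several alternatives could not turn a direction. The dim filter, the intensity trend and the replicate block leave a member's log2 difference unchanged, and median centring and the block leave a ratio's difference unchanged. The floor also left Myh7 over Myh1 at 1.37, as no value of either gene was under 20. Leaving out wild-type replicate 3 turned Myl1 (0.040) and Mylpf (0.16), and leaving out mutant replicate 1 turned Mylpf (0.016). With 1 array left out Myl1 ran from -0.45 to 0.040, Mylpf from -0.47 to 0.16, Myh7 over Myh1 from 1.02 to 1.59 and Myl3 over Myl1 from 0.63 to 1.02 (log2). Over all probe sets 0 were called higher and 0 lower by limma, with 669 at an unadjusted p under 0.05. Array weights gave 4 called higher, Ddit4, Msmp, Depp1 and Hif3a. Centring on the sarcomere frame gave 2 higher, Angptl7 and Depp1, and 1 lower without a single symbol. These were named after their values were seen. With 1 array left out the count called higher ran from 0 to 15, reached without mutant replicate 3. At an unadjusted p under 0.05, 516 were higher and 153 lower as deposited, against 570 and 294 after median centring, 532 and 322 after quantile normalization, and 109 and 444 after centring on the frame. Without the dimmest 25% of probe sets Myl3 gave no value. Same-numbered arrays of the groups had deviations correlated at -0.11, -0.026 and 0.32, and not every array went best with its own number, so the numbers were not taken as pairs. With the replicate block the adjusted p of Mybpc2 was 0.603, the ratios gave an exact permutation p of 0.25, the smallest that 3 pairs allow, and 0 probe sets were called. Dim values of Mybpc2 and Myl3 limit the size of their differences: with 16 added before log2 they were -0.82 and 0.40.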
